A study of Mus musculus with 10 samples.

Results

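The genes described here are 10 members of the TNF system, the ligands, receptors and feedback regulators of tumor necrosis factor and its relatives. They were taken by symbol from the deposited gene table, and all 10 had a row among 23382 rows with an NCBI gene identifier and 39488 rows in all. The ligands were Tnf, Tnfsf9, Tnfsf10, Tnfsf13b and Tnfsf15, the receptors were Fas, Tnfrsf1a and Tnfrsf1b, and the feedback genes were Tnfaip3 and Tnip1. RNA was sequenced from peritoneal macrophages of C57BL/6 mice, 8 weeks old, that had been elicited with thioglycollate, an irritant that draws monocytes into the peritoneal cavity. The control group had 5 libraries from cells labelled as untreated. The ox-LDL group had 5 libraries from cells primed with LPS at 100 ng/ml, a bacterial product, and then given oxidized low-density lipoprotein (ox-LDL) at 100 µg/ml for 16 h. No library received LPS or ox-LDL alone according to the labels, so the effects of both agents cannot be told apart, and a legend of the study leaves room for LPS in the control cells too. Whether each library came from 1 mouse or from pooled mice is not given in the sources used here, so p-values measure the spread between these libraries.

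TNF superfamily ligands are mostly made as trimeric proteins in the cell membrane, some of which are cut off and act on other cells. Their receptors carry either a death domain, which can start apoptosis or NF-kB signaling, or motifs that recruit TRAF adaptor proteins. In macrophages TNF is an early product of NF-kB signaling, and NF-kB in turn switches on Tnfaip3, which encodes the ubiquitin-editing enzyme A20, and Tnip1, which encodes the A20-binding protein ABIN1. Both proteins restrain NF-kB signaling and cell death below the TNF receptor.

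The upstream sequence of both feedback genes held matches to the NF-kB consensus, a 10-base motif searched on both strands from 250 bases before to 50 bases after the transcription start. The promoter table (RefSeq, GRCm38.p6) held 9 of the 10 genes with 11 promoters, since Tnfaip3 and Tnfsf13b have 2 each. An NF-kB match was found in 2 of the 11 promoters, and in 8.46% of all 32851 promoters in the table. The 250 bases before the start are shown for these genes and for Tnf, the ligand with the largest fold change, each 5′ to 3′ on the strand of the gene. The capitals mark NF-kB matches.
Tnfaip3, chr10:19015411-19015660, minus strand: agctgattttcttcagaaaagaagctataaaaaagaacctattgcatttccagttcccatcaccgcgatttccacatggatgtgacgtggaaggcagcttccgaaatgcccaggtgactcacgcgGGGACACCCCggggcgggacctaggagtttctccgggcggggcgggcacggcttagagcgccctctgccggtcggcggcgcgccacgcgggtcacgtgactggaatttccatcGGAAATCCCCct
Tnip1, chr11:54962941-54963190, minus strand: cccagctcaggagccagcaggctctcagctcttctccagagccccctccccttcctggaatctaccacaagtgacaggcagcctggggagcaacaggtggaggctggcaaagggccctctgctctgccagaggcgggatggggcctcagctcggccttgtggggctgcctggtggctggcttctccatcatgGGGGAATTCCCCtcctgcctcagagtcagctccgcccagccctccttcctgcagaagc
Tnf, chr17:35202008-35202257, minus strand: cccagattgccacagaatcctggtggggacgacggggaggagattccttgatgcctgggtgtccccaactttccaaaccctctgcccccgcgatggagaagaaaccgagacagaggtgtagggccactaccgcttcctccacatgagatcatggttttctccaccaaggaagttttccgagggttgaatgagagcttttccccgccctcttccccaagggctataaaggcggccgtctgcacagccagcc
The matches of Tnfaip3 began 125 and 12 bases before its first listed start, and its second listed start had none. In Tnip1, 3 overlapping matches beginning 58, 57 and 56 bases before the start formed a single run of 12 bases. The Tnf sequence had no match to any of the 4 motifs searched in this window. The AP-1 motif TGANTCA was found in 4 of the 11 promoters (those of Fas and Tnfsf13b and 1 of Tnfaip3) and in 7.81% of all promoters. The IRF core AANNGAAA was found in 7 of the 11 promoters and in 23.9% of all promoters, and the GAS motif TTCNNNGAA in 4 of the 11 (Fas, Tnfrsf1a, Tnfrsf1b and Tnip1) and in 8.3% of all promoters. Matches of different motifs did not overlap in these genes. These counts describe letters in a short window, and no binding was measured.

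The libraries held 19257131 to 20687289 counts each. Levels are given as CPM, the estimated count scaled to a common library size with TMM factors, which correct for differences in composition between libraries. Ox-LDL replicate 2 stood apart in composition, with a TMM factor of 0.593 against 0.837 to 1.19 in the other libraries. In this library genes shorter than 1000 bases had a median deviation of 1.36 on the log2 scale from their mean over the ox-LDL libraries, and genes of 4000 bases or more had one of -0.485. Results that rest on this library are therefore also given without it. All 8 macrophage markers were detected in every library, with a summed level of 19700 to 46800 CPM in controls and 12500 to 47900 CPM in ox-LDL libraries, most of it Lyz2. Of these markers Adgre1 (log2 fold change 2.07, adjusted p = 2.87e-04) and Cd14 (2.24, adjusted p = 8.46e-04, edgeR) were called higher in the ox-LDL group and the other 6 were not called. The part of these markers in the results below was not tested.

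In macrophages given LPS and ox-LDL, 6 of the 10 genes were upregulated, namely Tnf, Tnfsf9, Tnfsf15, Fas, Tnfaip3 and Tnip1. A gene was called when edgeR's quasi-likelihood test gave a p below 0.01 after Benjamini-Hochberg adjustment over the 12654 genes tested. By this rule 14.7% of all genes were called, 9.4% as higher and 5.35% as lower in the ox-LDL group. All 10 genes passed the filter on low counts, but Tnfsf9, Tnfsf10 and Tnfsf15 did so only with the help of the ox-LDL libraries, since the count cutoff was reached in 4, 3 and 3 of their 5 controls. No member was downregulated (0 of 10 by edgeR, 0 at an unadjusted p below 0.05 and 0 by DESeq2). With 10 genes, a count of 0 is close to the 5.35% of all genes called lower. Of the 6 upregulated genes, 5 had a log2 fold change above 2, a combination met by 4.78% of all genes. Each ox-LDL library exceeded each control library for Tnf, Tnfsf9, Tnfsf15, Fas and Tnfaip3, 5 of the 10 genes, against 11.6% of all genes. The number was 4 by library size alone in place of TMM, and also 4 on FPKM, the deposited level per length of transcript. Across the 10 genes the median log2 fold change was 1.94, whereas it was 0.0966 over all genes tested. The 10 genes were chosen with earlier results of these data known, so these shares describe them and do not test them as a set. Scaling by library size alone in place of TMM moved the median of all genes by -0.189 and the split of higher and lower calls over all genes from 1189 and 677 to 704 and 583, with 5 of the 10 genes still called higher. In bulk RNA, a change in the number of expressing cells and a change in RNA per cell cannot be told apart. The plot of levels by library shows that the spread was wider among ox-LDL libraries than among controls for Tnf and for both feedback genes.

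**Figure D1:**
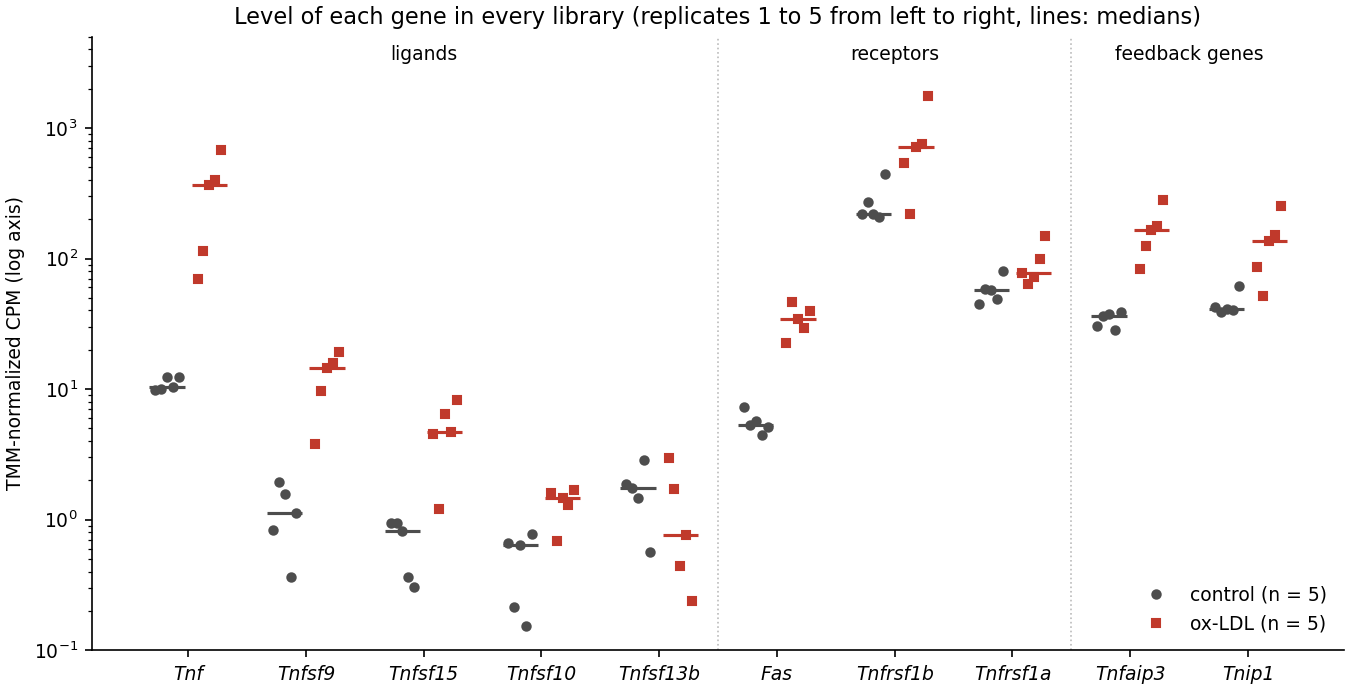
TMM-normalized CPM of the 10 genes on a log axis, with 5 control libraries (circles) and 5 ox-LDL libraries (squares) per gene and a line at the median of each group. The squares of Tnf, at 69.2 to 682 CPM, lie clear of its circles at 9.79 to 12.4 CPM, whereas the groups of Tnfsf13b overlap.

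Tnf, the central inflammatory cytokine of the family, showed the largest fold change of the 10 genes. Its locus is chr17:35336326-35338952 in mm9, the build of the deposited data to which all loci below refer, and lies on the minus strand, 1158 bases from Lta, the gene of the related ligand lymphotoxin alpha. Tnf was at 9.79, 10.1, 12.3, 10.4 and 12.4 CPM in control replicates 1 to 5. In ox-LDL replicates 1 to 5 it was at 69.2, 113.9, 367.8, 396.2 and 682.1 CPM. The controls lay within a narrow band (coefficient of variation 11.6%), whereas the ox-LDL libraries spread over a 9.85-fold range (75.9%) without reaching down to the controls. The mean rose from 11 ± 1.27 to 326 ± 247 CPM (SD, n = 5 per group), a log2 fold change of 4.89 (SE 0.58) with an adjusted p of 1.2e-04 (edgeR). Among the 1189 genes called higher, Tnf ranked 125 by fold change. Without ox-LDL replicate 5, its highest library, the log2 fold change of Tnf was 4.40 (adjusted p = 2.25e-04, edgeR).

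Tnfsf9 and Tnfsf15, ligands known for costimulating T cells, were scarce in controls and upregulated in the ox-LDL group. Tnfsf9 encodes 4-1BBL, the ligand of 4-1BB (Tnfrsf9), and lies at chr17:57244808-57247180 on the plus strand. Its levels were 0.83, 1.93, 1.58, 0.361 and 1.13 CPM in control replicates 1 to 5. In ox-LDL replicates 1 to 5 they were 3.83, 9.68, 14.5, 16.0 and 19.3 CPM. The groups did not overlap, and ox-LDL replicate 1 was the lowest of its group, as it was for Tnf. The log2 fold change of Tnfsf9 was 3.42 (SE 0.49, adjusted p = 4.25e-04, edgeR), a 10.7-fold difference. The gene overlaps Gm11110 on the opposite strand, and the use of strand in counting is not given in the sources used here.

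Tnfsf15 encodes TL1A, the ligand of death receptor 3, and lies at chr4:63385637-63406147 on the minus strand. It was at 0.94, 0.942, 0.813, 0.361 and 0.304 CPM in control replicates 1 to 5, which came from 7 to 22 counts a library. In ox-LDL replicates 1 to 5 it was at 4.57, 1.20, 6.44, 4.69 and 8.30 CPM, the second of these from 14 counts. The groups did not overlap in CPM, but ox-LDL replicate 2 came close to the controls. On FPKM this library was at 0.12, within the 0.06 to 0.19 of the controls. Tnfsf15 had a log2 fold change of 2.90 (SE 0.50, adjusted p = 0.00136, edgeR), and it was 3.11 (adjusted p = 1.17e-04) without ox-LDL replicate 2. Tnfsf15 was not called by limma on log2(FPKM + 1) without a filter (log2 fold change 0.76, adjusted p = 0.0304).

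The other ligands, Tnfsf10 and Tnfsf13b, were at low levels in both groups and were not called. Tnfsf10 encodes TRAIL, a ligand of death receptors, at chr3:27215950-27241349 on the plus strand. It was at 0.664, 0.214, 0.642, 0.155 and 0.782 CPM in control replicates 1 to 5, and at 1.61, 0.685, 1.46, 1.29 and 1.67 CPM in ox-LDL replicates 1 to 5. Only ox-LDL replicate 2 fell within the range of the controls. The log2 fold change of 1.45 (SE 0.45) had an adjusted p of 0.0338 from edgeR and of 0.00731 from DESeq2. Without ox-LDL replicate 2 the log2 fold change of Tnfsf10 was 1.57 (adjusted p = 0.0152, edgeR). With 3 to 17.5 counts per control library, the precision for this gene was limited.

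Tnfsf13b encodes BAFF, a survival factor for B cells, at chr8:10006843-10035441 on the plus strand. Its control levels were 1.88, 1.76, 1.46, 2.88 and 0.565 CPM in replicates 1 to 5. Its ox-LDL levels were 2.96, 1.71, 0.439, 0.766 and 0.239 CPM in replicates 1 to 5. The ox-LDL group held both the highest library of all, replicate 1, and the lowest, replicate 5. Tnfsf13b had the lowest log2 fold change of the 10 genes, -0.47 (SE 0.62, adjusted p = 0.62, edgeR), and it was -1.15 (adjusted p = 0.173) without ox-LDL replicate 1.

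Among the receptors, Fas showed the clearest difference between the groups. Fas is a death receptor that triggers apoptosis on binding Fas ligand, and its gene lies at chr19:34365149-34402260 on the plus strand. It was at 7.30, 5.31, 5.73, 4.48 and 5.08 CPM in control replicates 1 to 5, and at 22.7, 46.8, 34.6, 29.3 and 39.7 CPM in ox-LDL replicates 1 to 5. The lowest ox-LDL library was far above the highest control, and the ox-LDL libraries lay within a 2.06-fold range, the narrowest of the 10 genes. The mean rose from 5.58 ± 1.06 to 34.6 ± 9.29 CPM (SD, n = 5 per group). The log2 fold change of 2.63 (SE 0.23) had an adjusted p of 2.22e-05 in edgeR, the lowest of the 10 genes. Fas was the only one of the 10 genes with its highest level in ox-LDL replicate 2, and without that library its log2 fold change was 2.46 (adjusted p = 9.84e-06).

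Both TNF receptors were abundant in controls and neither was called at the threshold used. Tnfrsf1a encodes TNFR1, the death domain receptor found on most cells, at chr6:125299380-125312502 on the plus strand. It was at 44.7, 58.8, 57.5, 49.3 and 81.0 CPM in control replicates 1 to 5, and at 77.1, 63.5, 71.6, 99.2 and 148.6 CPM in ox-LDL replicates 1 to 5. Control replicate 5 exceeded 3 of the 5 ox-LDL libraries. The log2 fold change of Tnfrsf1a was 0.66 (SE 0.26, adjusted p = 0.0803, edgeR), the smallest among the genes with a positive difference. It was 0.73 (adjusted p = 0.0275) without ox-LDL replicate 2.

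Tnfrsf1b encodes TNFR2, a receptor without a death domain that is most abundant on immune cells, at chr4:144803366-144836773 on the minus strand. It was at 219, 272, 219.5, 207 and 444 CPM in control replicates 1 to 5. In ox-LDL replicates 1 to 5 it was at 535, 218.5, 717, 757 and 1754 CPM. All ox-LDL libraries but replicate 2 were above all controls, and replicate 2 lay among them. A log2 fold change of 1.55 (SE 0.47) had an adjusted p of 0.0288 from edgeR and of 0.00397 from DESeq2. Without ox-LDL replicate 2, Tnfrsf1b was called, with a log2 fold change of 1.75 (adjusted p = 0.00236, edgeR). Without ox-LDL replicate 5, the highest library, the log2 fold change was 1.01 (adjusted p = 0.0679).

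**Figure D2:**
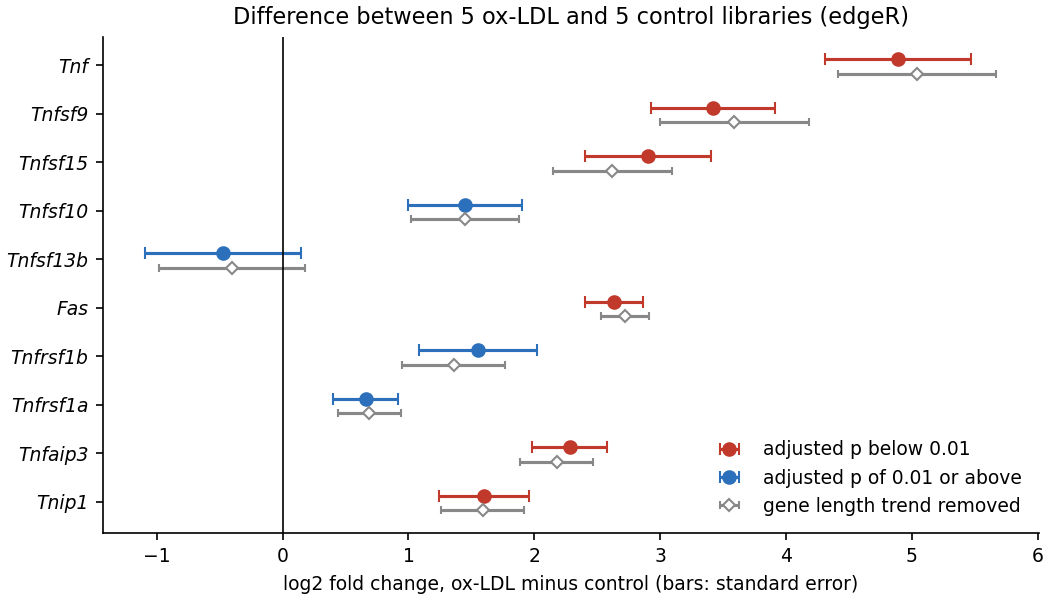
Log2 fold change of ox-LDL minus control libraries (n = 5 per group) with its standard error for each gene, as fitted by edgeR (filled circles) and after the trend of each library on gene length was removed (open diamonds). Tnf lies furthest to the right at 4.89 and Tnfsf13b is the only gene below 0, at -0.47.

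The balance of the TNF receptors was compared as the ratio of Tnfrsf1b to Tnfrsf1a within each library, on FPKM, the deposited level per length of transcript. The ratio was 2.08, 1.96, 1.62, 1.79 and 2.33 in control replicates 1 to 5, so TNFR2 transcripts exceeded TNFR1 transcripts in each of them. It was 2.94, 1.46, 4.24, 3.24 and 5.00 in ox-LDL replicates 1 to 5. Ox-LDL replicate 2 had the lowest ratio of all 10 libraries, and the other ox-LDL libraries were above every control. The mean was 1.95 ± 0.272 in controls and 3.38 ± 1.35 in the ox-LDL group (SD, n = 5 per group). On the log2 scale the difference was 0.69, with a two-sided p of 0.0714 by exact permutation, where the smallest p possible was 0.00794. Without ox-LDL replicate 2 the difference was 0.96 (exact permutation test, p = 0.0159). That is the smallest p possible without this library, because leaving out the only library that overlapped separates the groups fully. With the trend on gene length removed and all libraries kept, it was 0.48 (exact permutation test, p = 0.103). The transcripts differ in length, at 4691 bases for Tnfrsf1b and 1990 bases for Tnfrsf1a as implied by the deposited values, and ox-LDL replicate 2 had low values for long genes.

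**Figure D3:**
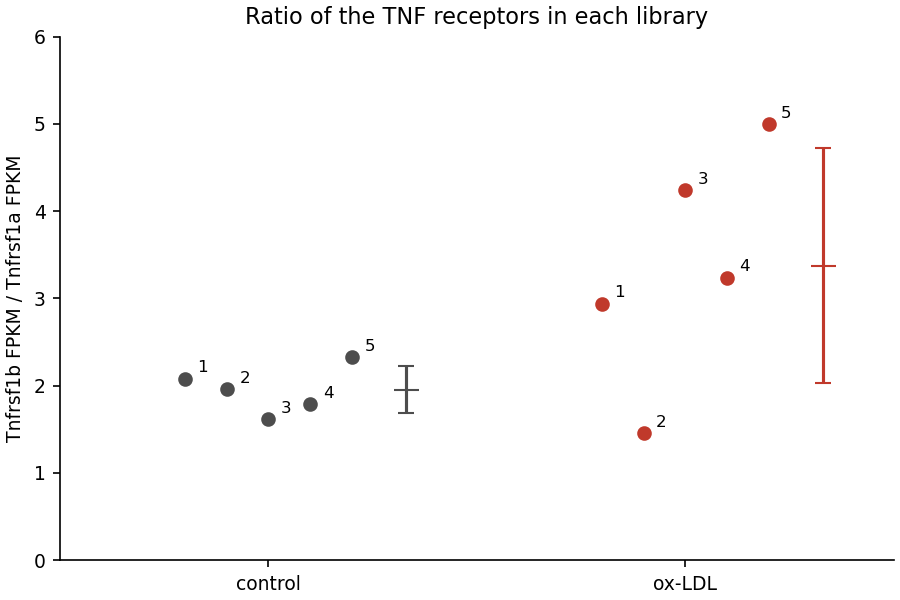
Ratio of Tnfrsf1b to Tnfrsf1a FPKM in each library, numbered by replicate, with the mean and SD of each group of 5 at its right. Ox-LDL replicate 2, at 1.46, lies below the controls, and the other ox-LDL libraries lie at 2.94 to 5.00.

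Both feedback genes were upregulated, and the feedback gene with the larger change was Tnfaip3. Tnfaip3 lies at chr10:18720716-18735463 on the minus strand. It was at 30.5, 36.4, 37.4, 28.1 and 39.2 CPM in control replicates 1 to 5. In ox-LDL replicates 1 to 5 it was at 82.8, 125.8, 166.0, 177.0 and 280.8 CPM. All ox-LDL libraries were above all controls, in the same order as for Tnf and Tnfsf9. The share of all genes with this order was not counted. Tnfaip3 had a log2 fold change of 2.28 (SE 0.30, adjusted p = 2.23e-04, edgeR), so it changed 4.85-fold where Tnf changed 29.6-fold.

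Tnip1 lies at chr11:54724289-54776419 on the minus strand and overlaps Gm12230 on the plus strand. It was at 42.3, 38.8, 40.8, 40.4 and 61.6 CPM in control replicates 1 to 5, and at 86.0, 51.7, 137.2, 150.6 and 251.2 CPM in ox-LDL replicates 1 to 5. Control replicate 5, the highest control, exceeded ox-LDL replicate 2, and no other libraries crossed. Tnip1 had a log2 fold change of 1.60 (SE 0.36, adjusted p = 0.00656, edgeR). This call was close to the threshold. The adjusted p of Tnip1 was above 0.01 in 12 of 24 alternative analyses, 7 of which left out a single library, and it was 4.67e-04 without ox-LDL replicate 2. With the trend on gene length removed, ox-LDL replicate 2 was at 61.3 CPM and control replicate 5 at 59.9 CPM, so that the groups no longer overlapped (log2 fold change 1.59, adjusted p = 0.0029).

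Per length of transcript, the order of the 10 genes changed most for Tnf. In controls Tnfrsf1b had the highest mean FPKM, at 62.2 ± 26.8, followed by Tnfrsf1a at 31.3 ± 10.1, Tnip1 at 18.9 ± 5.00, Tnfaip3 at 8.76 ± 2.07 and Tnf at 7.80 ± 1.62 (SD, n = 5). The last pair did not differ beyond their spread, with 6.50 to 10.6 FPKM for Tnfaip3 and 5.85 to 9.51 FPKM for Tnf. In the ox-LDL group Tnf came first, at 203.5 ± 147.5 FPKM, and Tnfrsf1b second, at 160.6 ± 100.2 FPKM. Their ranges overlapped, at 43.9 to 374.7 and 27.0 to 306.7 FPKM. Behind them Tnip1 (50.4 ± 26.2 FPKM), Tnfrsf1a (43.4 ± 16.6 FPKM), Tnfaip3 (36.9 ± 15.9 FPKM) and Fas (24.2 ± 2.76 FPKM) also overlapped with their neighbours. Tnfsf9 rose from 1.29 ± 0.717 to 11.3 ± 5.76 FPKM and kept rank 7. Tnfsf15, Tnfsf13b and Tnfsf10 held the last 3 ranks in both groups, with means of at most 1.12 FPKM. FPKM were used as deposited, without TMM scaling, so these levels do not correct for the composition of ox-LDL replicate 2.

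**Figure D4:**
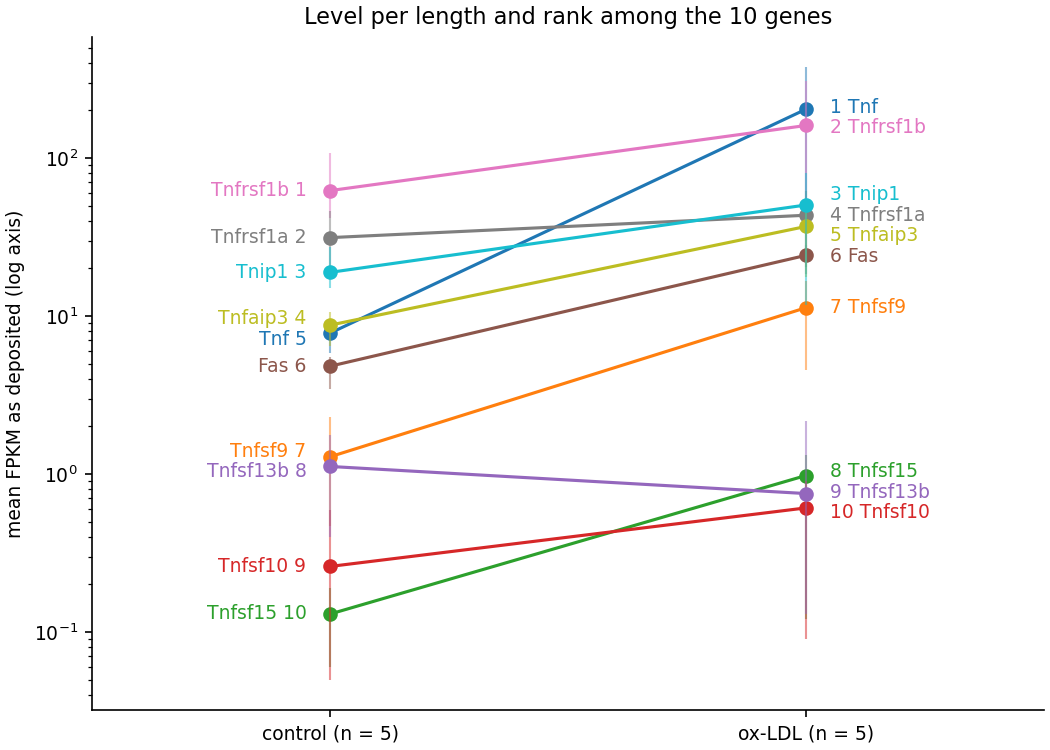
Mean FPKM of each gene in the control and ox-LDL groups (n = 5 each) on a log axis, with the range over libraries as a vertical line and the rank beside the name. Tnf moves from rank 5 at 7.80 FPKM to rank 1 at 203.5 FPKM.

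The libraries took similar places for many of these genes. Ox-LDL replicate 5 was the highest ox-LDL library for 8 of the 10 genes, and it was the highest for 21.3% of all genes tested. The lowest ox-LDL library was replicate 2 for 5 genes (38.0% of all genes) and replicate 1 for 4 (14.2%). In the control group replicate 5 was the highest for 6 of the 10 genes, against 29.1% of all genes. Without ox-LDL replicate 5 the log2 fold changes of the 6 upregulated genes were 4.40 for Tnf, 3.21 for Tnfsf9, 2.63 for Tnfsf15, 2.58 for Fas, 2.00 for Tnfaip3 and 1.23 for Tnip1, with Tnip1 above the threshold (adjusted p = 0.0111, edgeR). Without control replicate 5 the calls of all 6 remained, and for 8 of the 10 genes all ox-LDL libraries exceeded the remaining controls, as they did for 14.1% of all genes. Without ox-LDL replicate 2 that number was also 8, against 18.6% of all genes, and 7 of the 10 genes were called higher, against 13.5% of all genes.

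Other genes of the TNF pathway were grouped in 6 lists by role, with 91 genes in the table and 70 tested. Of these 22 were higher, 6 were lower and 42 were not called, and the median log2 fold change was 0.553. The higher calls amount to 22 of 70 against 9.4% of all genes, and the lower calls to 6 of 70 against 5.35%. The counts of each list below stand beside the same shares of all genes. These lists too were chosen with earlier results of these data known, so the counts are descriptive.

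Of 12 other ligands in the table only 2 were tested, and both were lower in the ox-LDL group. Tnfsf13 encodes APRIL, a B cell and plasma cell factor related to BAFF. It was at 119.8, 115.1, 78.6, 142.0 and 118.2 CPM in control replicates 1 to 5, and at 16.8, 66.9, 9.71, 11.1 and 19.9 CPM in ox-LDL replicates 1 to 5. All ox-LDL libraries were below all controls, and its log2 fold change was -2.21 (SE 0.49, adjusted p = 0.00589, edgeR). Ox-LDL replicate 2 was the highest of its group by far. When it was left out, Tnfsf13 had a log2 fold change of -3.04 (adjusted p = 1.15e-05, edgeR). The call of Tnfsf13 was lost in 9 of 24 alternatives, 8 of which left out a single library. Tnfsf12 encodes TWEAK, the ligand of Fn14, and fell from 187 to 268 CPM in controls to 67.3 to 111 CPM in ox-LDL libraries (log2 fold change -1.38, SE 0.19, adjusted p = 3.34e-04, edgeR). The remaining 10 had too few counts for the test, among them Fasl, the ligand of Fas, at no more than 0.0597 CPM in any library. Of these, Lta and Tnfsf14 were higher in every ox-LDL library than in any control, and the others overlapped. Lta was at up to 0.174 CPM in controls and 0.391 to 17.0 CPM in ox-LDL libraries. Tnfsf14 was at 0.0515 to 0.261 and 0.335 to 1.28 CPM. Cd40lg was not analysed here.

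Of 25 other receptors 14 were tested, 6 of which were higher and 2 lower, with a median log2 fold change of 0.791. Cd40, the receptor through which T cells activate macrophages, was at 3.55 to 5.95 CPM in controls and 40.3 to 352 CPM in ox-LDL libraries. Its log2 fold change of 5.07 (SE 0.59, adjusted p = 1.14e-04, edgeR) was the largest of the receptors tested. Tnfrsf9, the receptor of the Tnfsf9 product, was at no more than 0.128 CPM in controls and at 0.537 to 2.31 CPM in ox-LDL libraries (log2 fold change 4.06, SE 0.74, adjusted p = 0.00182). It was highest in ox-LDL replicate 2, and without that library its log2 fold change was 3.68. Its fitted fold change depends on the prior count, since 2 control libraries had no count, and no control reached the count cutoff of the filter, so Tnfrsf9 entered the test only through the ox-LDL libraries where it was high. Tnfrsf14 encodes HVEM, a receptor of the ligand LIGHT, and was higher as well (log2 fold change 1.65, SE 0.29, adjusted p = 0.00154). Tnfrsf13b encodes TACI, a receptor of BAFF and APRIL, and fell (log2 fold change -1.82, SE 0.28, adjusted p = 6.47e-04). Tnfrsf22, Tnfrsf23 and Tnfrsf26 were also called higher and Tnfrsf11a, which encodes RANK, was called lower. The first 3 of these are neighbouring, similar genes, so reads shared between them could be split. In control replicate 1 the counts of Tnfrsf22 and Tnfrsf23 were not whole, at 125.3 and 116.6, whereas that of Tnfrsf26 was whole, at 347.

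Of the 24 genes of the receptor signaling complexes, all of which were tested, 8 were higher and 0 were lower (edgeR and DESeq2, 0 lower also at an unadjusted p below 0.05), with a median log2 fold change of 0.598. With 24 genes, a count of 0 lower is close to the 5.35% of all genes called lower by edgeR. Traf1, an adaptor that binds TNFR2 and is itself induced by NF-kB, was at 2.88 to 6.30 CPM in controls and 52.4 to 281 CPM in ox-LDL libraries (log2 fold change 4.96, SE 0.51, adjusted p = 4.57e-05, edgeR). Cflar encodes c-FLIP, the inhibitor of caspase-8 at death receptors, and was at 24.1 to 33.1 and 132 to 293 CPM (log2 fold change 2.75, SE 0.25, adjusted p = 2.36e-05). Birc3 encodes the ubiquitin ligase cIAP2 and was at 18.8 to 23.8 and 80.1 to 156 CPM (log2 fold change 2.37, SE 0.20, adjusted p = 1.73e-05). Traf2, the adaptor that carries cIAP proteins to the receptors, showed a log2 fold change of 1.78 (SE 0.28, adjusted p = 7.14e-04). Traf3, Traf6, Ikbkg and Rnf31 were also called higher. The list mixes proteins that promote and that block cell death, and Cflar, Birc3 and Traf2 are among those that block it.

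Of 11 partners of A20 and other brakes on NF-kB signaling, 5 were higher and 1 was lower, with a median log2 fold change of 0.723. The largest changes were those of the IkB proteins, which hold NF-kB in the cytoplasm. Nfkbia was at 18.0 to 24.6 CPM in controls and 87.8 to 400 CPM in ox-LDL libraries (log2 fold change 3.20, SE 0.36, adjusted p = 8.07e-05, edgeR), and Nfkbie changed by 2.92 (SE 0.44, adjusted p = 5.89e-04). Zc3h12a, an RNase that degrades cytokine mRNA, had a log2 fold change of 1.99 (SE 0.33, adjusted p = 0.001). Tnip3, a relative of Tnip1, had one of 1.64 (SE 0.23, adjusted p = 3.94e-04). Rnf11 was also called higher, and Otulin, which removes linear ubiquitin chains, was called lower.

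Of 9 genes for the processing of TNF protein, 3 were higher and 1 was lower, with a median log2 fold change of 1.04. Rhbdf2 encodes iRhom2, which escorts the TNF-cleaving protease ADAM17 to the cell surface, and was at 7.91 to 16.7 CPM in controls and 27.7 to 67.7 CPM in ox-LDL libraries (log2 fold change 1.83, SE 0.29, adjusted p = 8.39e-04, edgeR). Timp3, an inhibitor of ADAM17, was at no more than 0.83 CPM in controls and at 1.80 to 9.14 CPM in ox-LDL libraries (log2 fold change 2.73, SE 0.43, adjusted p = 7.14e-04). Sppl2a, a protease that cuts the membrane stub of TNF, was also higher (1.38, SE 0.22, adjusted p = 8.53e-04). Adam10 fell by 0.95 on the log2 scale (SE 0.21, adjusted p = 0.00556), a call lost in 12 of 24 alternatives. None of 10 genes for proteins that bind Tnf mRNA was called by edgeR or by DESeq2, where edgeR called 14.7% of all genes. With 10 genes, a count of 0 is close to that share. At an unadjusted p below 0.05 (edgeR), 3 were higher and 1 was lower.

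**Figure D5:**
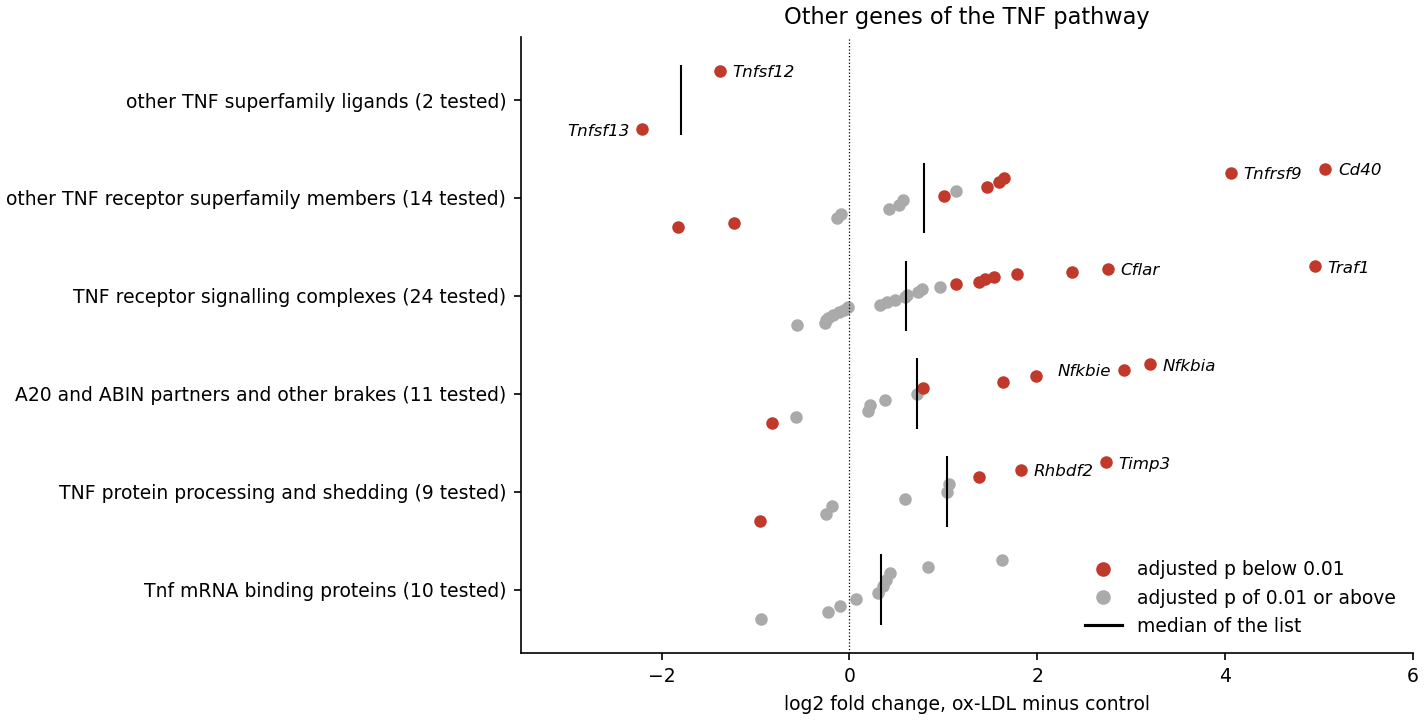
Log2 fold change of ox-LDL minus control (n = 5 libraries each) for the 70 tested genes of 6 pathway lists, in red where the adjusted p was below 0.01, with the median of each list as a black line. Cd40 (5.07) and Traf1 (4.96) lie furthest to the right, and both tested ligands lie below 0.

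Genes with a pattern most like that of Tnf were sought by the root mean square difference in log2(CPM + 1) over the 10 libraries, each gene centred on its control mean, among 7952 genes of at least 10 CPM in the higher group. The nearest were Rbfox1 (difference 0.16), Olr1 (0.23) and Traf1 (0.37). Their log2 fold changes were 5.63, 5.81 and 4.96 (edgeR), against 4.89 for Tnf. Adding 1 before the log damps the change of genes near 1 CPM in controls, such as Rbfox1 and Olr1, more than that of Tnf. The likeness therefore holds on this scale and not for the fold changes themselves. Olr1 encodes LOX-1, a receptor for ox-LDL, and was at 0.642 to 1.48 CPM in controls and at 16.0, 20.9, 76.7, 71.4 and 125 CPM in ox-LDL replicates 1 to 5. For Tnfsf13b, the gene with the lowest fold change, the nearest were Fam3c (0.29), Stra6l (0.31) and Ap5s1 (0.31), none of which was called.

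Markers of other peritoneal cells were looked at beside these results. Of 7 neutrophil markers, 5 were under 1 CPM in every library, and the summed level was 5.48 to 14.2 CPM in controls and 11.5 to 154 CPM in ox-LDL libraries, nearly all of it S100a8, which macrophages can also express and which was called higher (log2 fold change 2.76, adjusted p = 0.0031, edgeR). S100a8 was at 152 CPM in ox-LDL replicate 2 and at 10.8 to 63.7 CPM in the other ox-LDL libraries. Its groups overlapped, with controls reaching 14.2 CPM. B cell markers summed to 0.984 to 2.68 CPM in controls and 1.02 to 2.96 CPM in ox-LDL libraries, and T and NK cell markers to 0.899 to 1.33 and 0.927 to 2.57 CPM. Of the latter, Klrb1c, not tested, was at 0.257 to 0.599 CPM in controls and at most 0.0597 CPM in ox-LDL libraries. The other T and NK cell markers overlapped between the groups. Dendritic cell markers summed to 1.33 to 2.78 and 1.87 to 4.71 CPM, with Clec9a called higher (log2 fold change 2.33, adjusted p = 0.00283), although only 1 control reached the count cutoff for it. Eosinophil and mast cell markers summed to 2.61 to 9.60 CPM in controls and 0.439 to 3.82 CPM in ox-LDL libraries, with Siglecf called lower (log2 fold change -3.32, adjusted p = 3.17e-04). Mesothelial and stromal markers summed to 12.4 to 43.4 CPM in controls and 69.9 to 115 CPM in ox-LDL libraries, with Col1a1 and Dcn called higher and 2 of the 6 markers under 1 CPM everywhere. Upk3b, not tested, went the other way, at 0.257 to 0.940 CPM in controls and at most 0.239 CPM in ox-LDL libraries. The part of these cell types in the values of the 10 genes was not tested.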

How the data were processed

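RNA from 10 cultures of peritoneal macrophages, 5 per group, was sequenced on the BGISEQ-500 platform. The submitters' processing notes name FastQC for read quality, HISAT2 (version 2.0.5) for alignment to mm9, SAMtools (version 1.4) for sorting and StringTie (version 1.3.3.13) for assembly. The authors deposited estimated counts per gene, of which 13.6% were not whole numbers, and the counting step is not given in the sources used here. They also deposited a second value per gene and library, treated as FPKM because it implied a nearly constant length per gene (median ratio of the longest to the shortest implied length 1.039 over 7035 rows).

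Of the 39488 rows, 9788 circular RNAs were left out. Estimated counts were rounded, filtered with filterByExpr, normalized by TMM and tested with edgeR 4.0.16 (quasi-likelihood, robust) in R 4.3.3, with p-values adjusted over the 12654 genes tested. Depth was nearly even, and the biological coefficient of variation was 37.3%. No libraries of a group were close enough in their counts to be a duplicate. The receptor ratio was compared by exact permutation over 252 arrangements. Alternatives used DESeq2 1.42.0, limma 3.58.1, other scalings, filters and thresholds, each library left out, and each library's trend on gene length removed by lowess. In data simulated from these libraries (12531 genes), edgeR recovered 75 of 100 genes changed 4-fold and 96 of 100 changed 16-fold, with 1 false call. The simulation drew each gene independently, with no library that stood apart and no trend on gene length. Its false calls therefore need not match those in the real libraries.

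Symbols came from RefSeq, loci from the GENCODE annotation of mm9 and promoters from a RefSeq table of GRCm38.p6. All 10 genes were named, and from each pathway list the 4 called genes with the largest absolute log2 fold change were given with values and other called genes by symbol. The members and lists were chosen with earlier results of these data known.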

Additional observations from a re-analysis of the deposited data

Results flagged for a closer look

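A library was taken to stand apart when its gap to the nearest library of its group, as a share of the range of the group, passed Dixon's limit for 5 values at the 95% level. Over 58 groups examined, 4 passed, where chance alone would give about 2.9. Among the controls, replicate 5 stood apart for Tnfrsf1b, at 444 CPM against 272 in the next library (share 0.726), and for Tnip1, at 61.6 CPM against 42.3 (share 0.845). Without this library the log2 fold change was 1.79 for Tnfrsf1b (adjusted p = 0.0237, edgeR) and 1.73 for Tnip1 (adjusted p = 0.00875). In the ox-LDL group, replicate 2 stood above the others for Tnfsf13, at 66.9 CPM against 19.9 (share 0.822), and without it the log2 fold change was -3.04 in place of -2.21 (edgeR). Replicate 5 stood above the others for Traf2, at 67.2 CPM against 32.9 (share 0.817).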

How the results depend on the processing

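The direction of all 10 genes was the same under every alternative that could be fitted. The calls of Tnf, Tnfsf9, Fas and Tnfaip3 were kept under each of them, that of Tnfsf15 was lost in 2 and that of Tnip1 in 12. The number of the 10 genes called higher ranged from 4 to 8 around 6. Genes with few counts (Tnfsf9, Tnfsf10, Tnfsf13b and Tnfsf15) could not be fitted with at least 10 counts in every library, and Tnfsf10 and Tnfsf15 not in the filtered FPKM fits. Where values moved, the cause was not tested. Over all genes 1866 calls became 3009 with DESeq2, 1243 with limma on log2(FPKM + 0.1), 1027 with limma on log2(FPKM + 1) without a filter, 3599 with 3 libraries left out together (ox-LDL replicates 2 and 5 and control replicate 5), 2868 with the trend on gene length removed and 3365 at an adjusted p below 0.05. Leaving out single libraries gave 1262 (control replicate 4) to 3257 (ox-LDL replicate 2). Higher calls (1189) became 704 by library size alone, 555, 543 and 472 with limma on FPKM (pseudocount 1, pseudocount 0.1, no filter), 1946 without the 3 libraries and 2045 at the looser threshold. Lower calls (677) became 1244 with DESeq2, 1653 without the 3 libraries, 1218 with the length trend removed and 1320 at the looser threshold, and 436 to 1502 without single libraries (control replicate 4 and ox-LDL replicate 2).

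Over the 6 pathway lists the 22 higher calls became 14 by library size alone and 11, 11 and 8 with limma on FPKM in the same order, and the 6 lower calls ranged from 3 to 6 without single libraries, with 3 when control replicate 1 was left out. For the other receptors 8 calls became 4 by library size alone and 4, 4 and 3 on FPKM. For the signaling complexes 8 became 4 by library size alone and 4, 4 and 4 on FPKM, with 5 (control replicate 1) to 12 (ox-LDL replicate 2) without single libraries. For the brakes 6 became 3 on FPKM without a filter, for TNF processing 4 became 1, 1 and 0 on FPKM, and for the binders of Tnf mRNA 0 became 1 without the 3 libraries and 0 to 1 without single libraries. The 2 calls of other ligands ranged from 1 to 3. The 5 genes without overlap became 9 without the 3 libraries, where 29.2% of all genes had none, and 5 to 8 without single ones, where the share of all genes was 11.9% to 18.6%. They became 4 by library size alone, 4 on FPKM and 6 with the length trend removed. Without single libraries the log2 difference of the receptor ratio ranged from 0.52 (without ox-LDL replicate 5, p = 0.143) to 0.96 (without ox-LDL replicate 2, p = 0.0159, exact permutation tests), and it was lowest with the length trend removed, at 0.48 (exact permutation p = 0.103). The p without ox-LDL replicate 2 was the smallest possible with that library left out.

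Whether replicate numbers pair the libraries was not settled, since the correlations of deviations within a number had mixed signs. They ranged from -0.285 (number 4) to 0.443 (number 3), with 0.411 for number 5, and only 1 control correlated best with its own number. Retnlg reached 1.78 CPM (control) and 1.61 CPM (ox-LDL) in the libraries numbered 5, against no more than 0.103 CPM in any other library. S100a9 and Siglech, with at most 8 counts, were detected in the libraries numbered 5 alone. A shared source of these libraries was not tested. With the replicate number as a block in edgeR, 1434 genes were called in all, and 5 of the 10 genes, with Tnfsf15 lost (adjusted p = 0.0104). Alternatives for overlap and the ratio with the length trend removed were added after the data had been seen.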

Other observations

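Some ligands could be set beside the genes of their receptors. For Tnfsf9 both partners were called higher, the ligand from 0.361 to 1.93 CPM in controls to 3.83 to 19.3 CPM in ox-LDL libraries and its receptor Tnfrsf9 from at most 0.128 CPM to 0.537 to 2.31 CPM, although Tnfrsf9 passed the filter on low counts only through the ox-LDL libraries. For Fas the receptor was called higher, whereas Fasl was at no more than 0.0597 CPM in any library. Tnfrsf25, the receptor of the Tnfsf15 product, was likewise at no more than 0.12 CPM. In the BAFF and APRIL branch, Tnfsf13 and the receptor gene Tnfrsf13b were called lower, Tnfsf13b was not called, and the other receptor genes Tnfrsf13c and Tnfrsf17 were at no more than 0.261 and 1.27 CPM.

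Lta, the neighbour of Tnf, did not pass the filter on low counts, so it was not tested, and it was chosen for mention after its values were seen. It was at 0, 0, 0.0428, 0 and 0.174 CPM in control replicates 1 to 5 and at 0.391, 0.856, 2.63, 2.92 and 17.0 CPM in ox-LDL replicates 1 to 5. The order of the ox-LDL libraries was that of Tnf, Tnfsf9 and Tnfaip3, and the share of all genes with this order was not counted.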
